A study of Mus musculus with 10 samples.

Results

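The genes described here make cholesterol or control how much of it is made: 30 mouse genes, chosen by their known function, for the enzymes from acetyl-CoA to cholesterol, the control of the transcription factor SREBP2, sterol transport and esterification, and the isoprenoid branch. They were measured in liver RNA of 6 *Vps33b* fl/fl-AlfpCre mice (knockout mice 1 to 3 were male and 4 to 6 female) and of 4 Cre-negative *Vps33b* fl/fl littermates (control mice 1 and 2 were male, 3 and 4 female), with 1 Affymetrix Mouse Gene 2.0 array per mouse. *Vps33b* encodes a vesicle trafficking protein, its floxed allele was on a C57BL/6J background in both genotypes, and AlfpCre deletes it in hepatocytes and cholangiocytes, so that the other cells of a knockout liver keep the gene. Mice of both genotypes ate chow with 0.5% cholic acid, a primary bile acid, for 2 weeks from 10 weeks of age according to the labels. The general methods of the study give an earlier start and a longer feeding. For the array mice the study states this diet and a range of ages at sacrifice, which includes the age at the end of feeding by the labels. Each gene was read from the probe set with the highest mean among those annotated to that gene alone. In this way 26 of the 30 genes were measured, among 22180 genes in all. *Acat2*, *Idi1*, *Soat1* and *Soat2* were not analysed here, *Idi1* because the probe set listing it is shared with another gene.

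Hepatocytes make cholesterol from acetyl-CoA through mevalonate, farnesyl diphosphate, squalene and lanosterol, and turn part of it into bile acids. SREBP2 is made as a precursor in the membrane of the endoplasmic reticulum. When sterols are low, SCAP escorts it to the Golgi, where proteases release the part that enters the nucleus and raises transcription of the synthesis enzymes. When sterols are high, the INSIG proteins hold SCAP and SREBP2 back.

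Promoters of genes that SREBP2 controls are known for sterol regulatory elements and for nearby CCAAT boxes, the binding site of NF-Y. Windows of 250 bases upstream of a transcript start, 30 in all, were available for 22 of the 26 genes in the RefSeq promoters of build GRCm38.p6, and a gene was counted where any of its windows held the motif. Of the 30 starts, 14 lay at the end of the gene's annotated span and 16 inside it. Part of each of those 16 windows is therefore within the gene, or the whole window where the start lies more than 250 bases inside. Every *Erlin1* window is wholly within the gene, with starts 379, 389 and 478 bases inside. CCAAT or its complement ATTGG occurred for 19 of these 22 genes (86.4%) and for 13 of the 13 enzymes with a window (100%), against 38.7% of all 16990 tested genes that had one. The element TCACNCCAC, searched on both strands, occurred for 1 gene, *Hmgcs1*, which is 4.55% of the 22, against 1.22% of all genes with a window. Only exact matches, with N as any base, were counted, and other forms or positions of the element were not searched. The windows shown are those of *Tm7sf2* and *Hsd17b7*, which were lower in knockout livers, of *Insig1*, which had the lowest log2 fold change of the 26 genes, and of *Hmgcs1* for its element. They are written 5′ to 3′ along the gene's strand, and capitals mark the matches to these motifs. The positions are chr19:6067851-6068100 (minus strand) for *Tm7sf2*, chr1:169969206-169969455 (minus strand) for *Hsd17b7*, chr5:28071162-28071411 (plus strand) for *Insig1* and chr13:119690101-119690350 (plus strand) for *Hmgcs1*.
Tm7sf2: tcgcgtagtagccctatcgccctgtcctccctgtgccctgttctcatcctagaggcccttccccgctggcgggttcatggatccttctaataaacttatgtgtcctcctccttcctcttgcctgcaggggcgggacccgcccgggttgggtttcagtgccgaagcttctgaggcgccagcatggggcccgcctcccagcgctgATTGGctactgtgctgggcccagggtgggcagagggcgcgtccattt
Hsd17b7: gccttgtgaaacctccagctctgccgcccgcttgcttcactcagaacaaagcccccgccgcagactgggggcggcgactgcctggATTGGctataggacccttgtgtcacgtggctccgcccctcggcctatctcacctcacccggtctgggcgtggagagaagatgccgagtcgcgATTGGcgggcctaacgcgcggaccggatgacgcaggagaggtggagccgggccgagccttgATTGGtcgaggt
Insig1: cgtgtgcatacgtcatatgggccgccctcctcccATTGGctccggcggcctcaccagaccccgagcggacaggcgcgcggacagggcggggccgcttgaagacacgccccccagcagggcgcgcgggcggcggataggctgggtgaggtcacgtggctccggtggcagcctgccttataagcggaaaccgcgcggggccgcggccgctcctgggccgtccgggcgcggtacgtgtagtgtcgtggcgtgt
Hmgcs1: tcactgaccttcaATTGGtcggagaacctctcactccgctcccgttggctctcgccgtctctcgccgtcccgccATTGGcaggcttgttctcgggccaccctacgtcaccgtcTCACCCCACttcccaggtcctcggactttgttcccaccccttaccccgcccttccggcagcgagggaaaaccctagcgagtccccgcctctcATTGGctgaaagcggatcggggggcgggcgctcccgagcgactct
The window of *Tm7sf2* held 1 ATTGG, from 47 to 43 bases upstream of the start. That of *Hsd17b7* held 3, and its start lies 37 bases inside the span of the gene. Its nearest ATTGG, 12 to 8 bases before that start, is therefore within the gene, and the other matches, at 73 to 69 and 165 to 161, are upstream of it. The window of *Insig1* held 1, from 216 to 212 bases upstream. In *Hmgcs1* the element TCACCCCAC lay from 137 to 129 bases upstream, between ATTGG at 176 to 172 and ATTGG at 45 to 41. These are matches of letters, and the data do not measure binding.

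Values are log2 expression as made by the authors with RMA, and each comparison is knockout minus control from limma with genotype and sex as terms. A gene passed the test at an adjusted p (Benjamini-Hochberg over all 22180 genes) below 0.05. Of the 26 genes, 2 enzymes were lower in knockout livers, *Tm7sf2* and *Hsd17b7*, 0 were higher and 24 did not pass. Among all genes 1.14% were lower and 3.11% were higher. At an unadjusted limma p below 0.05, 9 of the 26 genes (34.6%) were lower and 1 was higher, *Sqle*, while 7.67% of all genes were lower and 9.65% higher. The log2 fold change was below 0 for 20 of the 26 genes (76.9%), against 51.9% of all genes. Its median was -0.20 over the 26 genes and -0.01 over all genes. In bulk liver, fewer cells of a type and less RNA per cell cannot be told apart.

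**Figure D1:**
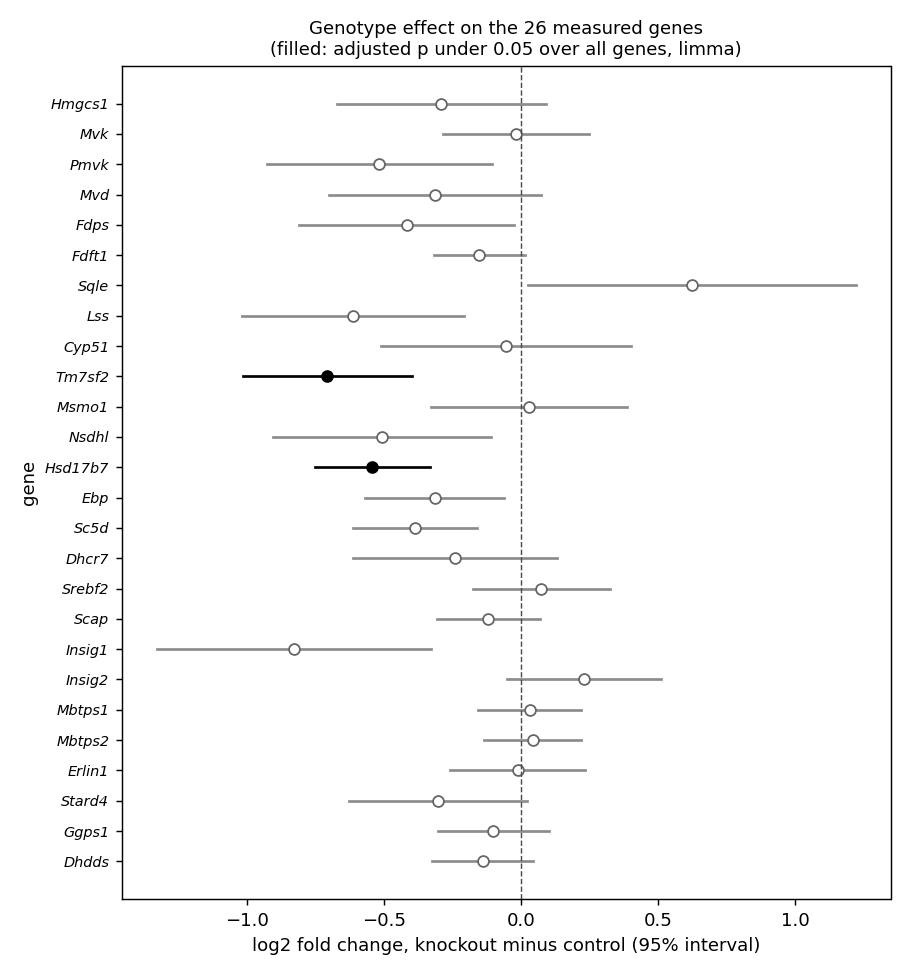
Log2 fold change (x axis, knockout minus control, limma) of the 26 measured genes (y axis, enzymes in pathway order, then control, transport and branch genes), with 95% intervals as bars. Filled points are the 2 genes that passed the test over all genes, *Tm7sf2* at -0.71 and *Hsd17b7* at -0.54, and 20 of the 26 points lie left of 0.

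The 16 measured enzymes held both of the lower genes. Of the 16, 14 had a log2 fold change below 0 (87.5%), with a median of -0.31, and 8 were lower at an unadjusted p below 0.05. Every knockout mouse lay below every control mouse in 3 of them, *Tm7sf2*, *Hsd17b7* and *Sc5d*, which is 18.8% of the 16 against 1.93% of all genes. No enzyme had every knockout mouse above every control mouse, a pattern found in 3.39% of all genes.

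*Tm7sf2* (probe set 17361921, chr19:6062821-6067850 in GRCm38.p6) encodes a sterol reductase that acts on the intermediate left by demethylation of lanosterol. Its log2 expression was 8.72 at the lowest, 8.99 at the median and 9.26 at the highest in knockout mice, and 9.34, 10.00, 9.96 and 9.56 in control mice 1 to 4. The groups did not overlap, but control 1 lay close to the highest knockout mouse. The means were 9.01 ± 0.19 in knockout mice and 9.72 ± 0.32 in control mice (SD, n = 6 and 4). The log2 fold change was -0.71 (SE 0.14, 95% interval -1.01 to -0.40, adjusted p = 0.0189, limma), a knockout level of 0.613 times the control level.

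*Hsd17b7* (probe set 17229466, chr1:169949535-169969242) encodes the keto reductase that ends the removal of a methyl group from sterol intermediates. It had 8.48 at the lowest, 8.68 at the median and 8.79 at the highest in knockout mice, and 9.10, 9.27, 9.04 and 9.36 in control mice 1 to 4. All 4 control mice, control 1 included, stood above the knockout mice by more than the spread within either group (SD 0.13 in knockout and 0.15 in control mice). The log2 fold change was -0.54 (SE 0.10, 95% interval -0.75 to -0.33, adjusted p = 0.0109, limma), a knockout level of 0.686 times the control level.

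*Sc5d*, the lathosterol desaturase, whose product is the substrate of *Dhcr7*, is shown because its groups did not overlap either (probe set 17525955, chr9:42251592-42264300). It read 11.19, 11.25 and 11.39 at the lowest, median and highest in knockout mice, and 11.42, 11.94, 11.72 and 11.57 in control mice 1 to 4. The gap between the highest knockout mouse and control 1 was small, and *Sc5d* did not pass over all genes (log2 fold change -0.39, SE 0.10, adjusted p = 0.0600, limma).

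Before squalene, 0 of the 6 measured enzymes passed the test, with fold changes below 0 in 6 of 6 and a median of -0.30. *Pmvk*, phosphomevalonate kinase, had 7.38, 7.57 and 7.72 at the lowest, median and highest in knockout mice, and 7.39, 8.61, 8.28 and 8.01 in control mice 1 to 4 (log2 fold change -0.52, SE 0.19, adjusted p = 0.166, limma). *Fdps*, farnesyl diphosphate synthase, had 9.18, 9.51 and 9.61 in knockout mice, and 9.43, 10.42, 10.16 and 9.53 in control mice (log2 fold change -0.42, SE 0.18, adjusted p = 0.254, limma). In both genes control 1 lay within the range of the knockout mice, and for *Pmvk* the other 3 control mice lay above it. *Hmgcs1*, the cytosolic synthase that makes HMG-CoA, had 9.52, 9.91 and 10.17 in knockout mice, and 9.70, 10.51, 9.93 and 10.57 in control mice. Its groups overlapped (log2 fold change -0.29, SE 0.17, 95% interval -0.67 to 0.09, adjusted p = 0.442, limma). The other 3 were *Mvd*, mevalonate diphosphate decarboxylase (-0.31, adjusted p = 0.409), *Fdft1*, squalene synthase (-0.15, adjusted p = 0.338), and *Mvk*, mevalonate kinase (-0.02, adjusted p = 0.964), all given as log2 fold changes from limma.

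The enzymes between squalene and lanosterol pointed in opposite directions, and neither passed the test. *Sqle*, squalene epoxidase, had 6.58, 7.15 and 7.67 at the lowest, median and highest in knockout mice, and 6.19, 6.83, 7.16 and 5.74 in control mice 1 to 4. It had the highest log2 fold change of the 26 genes, 0.62 (SE 0.27, 95% interval 0.03 to 1.22, adjusted p = 0.265, limma), with overlapping groups. *Lss*, lanosterol synthase, had 7.30, 7.51 and 7.80 in knockout mice, and 7.62, 8.66, 8.41 and 7.80 in control mice. Control 2 and control 3 lay above every knockout mouse for *Lss*, control 4 was level with the highest of them and control 1 lay among them (log2 fold change -0.61, SE 0.18, adjusted p = 0.0944, limma).

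Of the 8 enzymes after lanosterol, 2 were lower, the *Tm7sf2* and *Hsd17b7* already described, against 1.14% of all genes, and 6 did not pass. The median log2 fold change of the 8 was -0.35. *Nsdhl*, a sterol dehydrogenase of the same demethylation as *Hsd17b7*, had 8.93, 9.35 and 9.49 at the lowest, median and highest in knockout mice, and 9.30, 10.28, 10.10 and 9.47 in control mice 1 to 4 (log2 fold change -0.51, SE 0.18, adjusted p = 0.162, limma). As with *Fdps* and *Lss*, control 2 and control 3 stood high and control 1 lay within the knockout range. *Ebp*, a sterol isomerase, had a log2 fold change of -0.31 (adjusted p = 0.172), and *Dhcr7*, the reductase that yields cholesterol, of -0.24 (adjusted p = 0.529, limma). *Cyp51*, the lanosterol demethylase, had 8.10, 8.24 and 8.35 in knockout mice, and 7.57, 8.97, 8.48 and 8.12 in control mice. The control values lay on both sides of the knockout range, and the fold change was -0.05 (95% interval -0.51 to 0.40, adjusted p = 0.937, limma). *Msmo1*, the methylsterol oxidase, had the same form, with 7.46, 7.55 and 7.77 in knockout mice, and 6.93, 7.92, 7.82 and 7.55 in control mice (0.03, 95% interval -0.33 to 0.38, adjusted p = 0.961, limma).

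**Figure D2:**
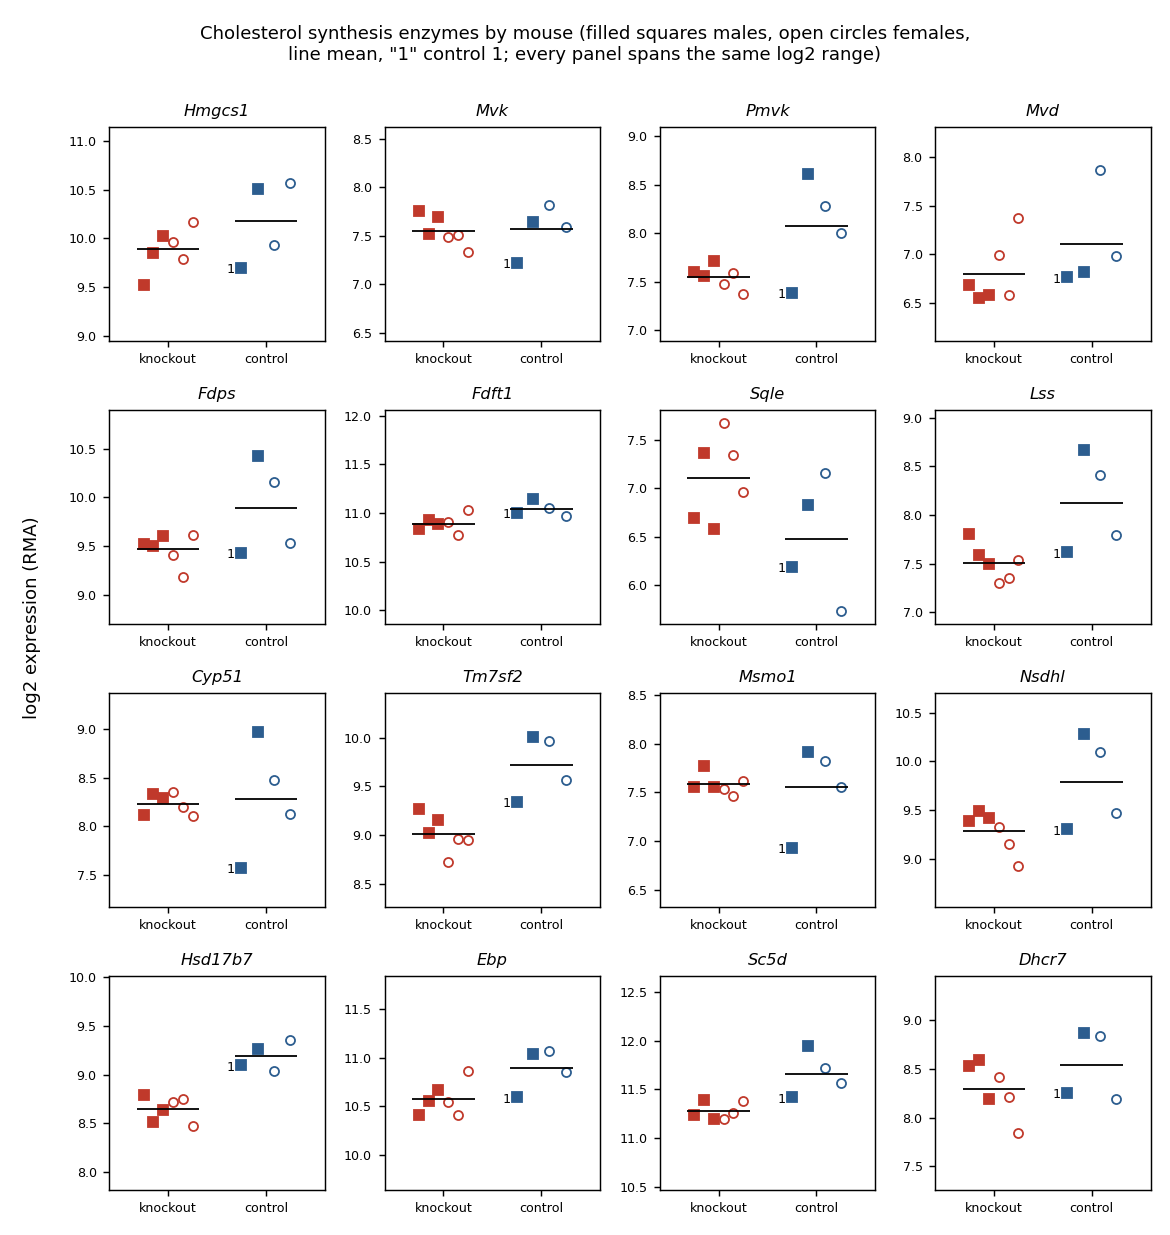
Log2 expression (y axis, RMA) of the 16 measured enzymes in each knockout mouse (left, red) and control mouse (right, blue), with the group mean as a line and control 1 marked by its number. In *Tm7sf2*, *Hsd17b7* and *Sc5d* every knockout mouse lies below every control mouse, and in 12 of the 16 panels control 1 is the lowest control mouse.

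The control livers differed among themselves in these enzymes more than the knockout livers did. The SD was larger in control than in knockout mice for 15 of the 16 enzymes (93.8%), against 51.8% of all genes, with a median SD over the enzymes of 0.17 in knockout mice and 0.44 in control mice. Without control 1 it was larger for 14 of the 16, against 43.5% of all genes. Each enzyme was also set against its own mean over the 10 mice. The mean deviation over the 16 enzymes was -0.11, -0.06, -0.11, -0.09, -0.18 and -0.12 in knockout mice 1 to 6, and -0.23, 0.47, 0.39 and 0.03 in control mice 1 to 4. By this mean control 1, a male, stood below all 6 knockout mice, with *Sqle*, *Cyp51* and *Msmo1* its lowest enzymes, but by the median deviation knockout 5 (-0.18) was lower than control 1 (-0.17). Control 2, the other male, stood highest. Control 1 was the lowest of the 4 control mice in 12 of the 16 enzymes, whereas it was the lowest in 27.2% of all genes. Control 2 was the highest of the 10 mice in 10 of the 16.

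**Figure D3:**
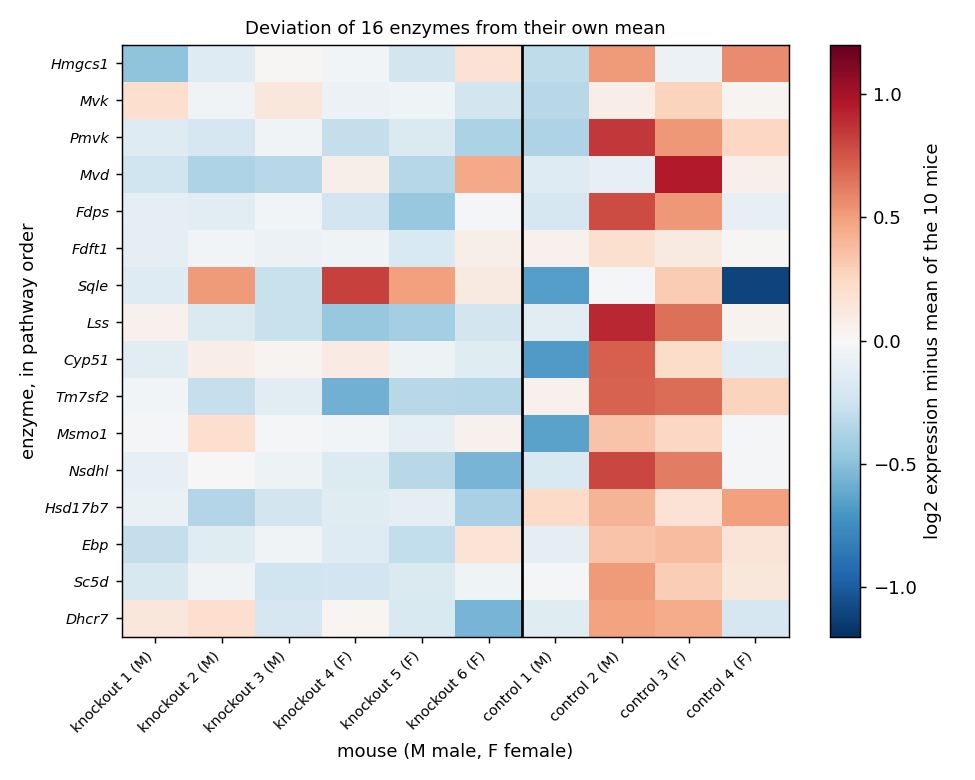
Deviation of log2 expression from the mean of the 10 mice (colour, red above and blue below) for the 16 enzymes (rows, pathway order) in each mouse (columns, knockout left of the line and control right of it). Control 2 and control 3 are mostly red, with mean deviations of 0.47 and 0.39, and control 1 is mostly blue (-0.23), as are the knockout mice (-0.18 to -0.06).

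The number of genes that passed changed with single control mice. Without control 1, 8 of the 26 genes were lower in knockout livers, against 2.02% of all genes: *Pmvk* (log2 fold change -0.79, adjusted p = 0.00277), *Fdps* (-0.61, adjusted p = 0.0413), *Lss* (-0.84, adjusted p = 0.00845), *Tm7sf2*, *Nsdhl* (-0.73, adjusted p = 0.0145), *Hsd17b7*, *Sc5d* (-0.48, adjusted p = 0.0171) and *Insig1* (-1.12, adjusted p = 0.00430, limma). Every knockout mouse then lay below every remaining control mouse in 6 of the 26 genes, against 5.16% of all genes. Without control 2, when 0.212% of all genes were lower, 0 of the 26 passed, and *Tm7sf2* and *Hsd17b7* had adjusted p = 0.0836 and 0.0537 (limma). Without control 3 or without control 4, *Hsd17b7* passed and *Tm7sf2* did not (adjusted p = 0.0575 and 0.0534, limma), when 0.514% and 0.347% of all genes were lower. The number of lower genes thus fell over all genes as well, to 47, 114 and 77 without control 2, 3 and 4, against 252 with all mice. With any 1 knockout mouse left out, both passed. *Tm7sf2* and *Hsd17b7* stayed below 0 with each of the 10 mice left out, between -0.88 and -0.59 and between -0.60 and -0.48 on the log2 scale.

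**Figure D4:**
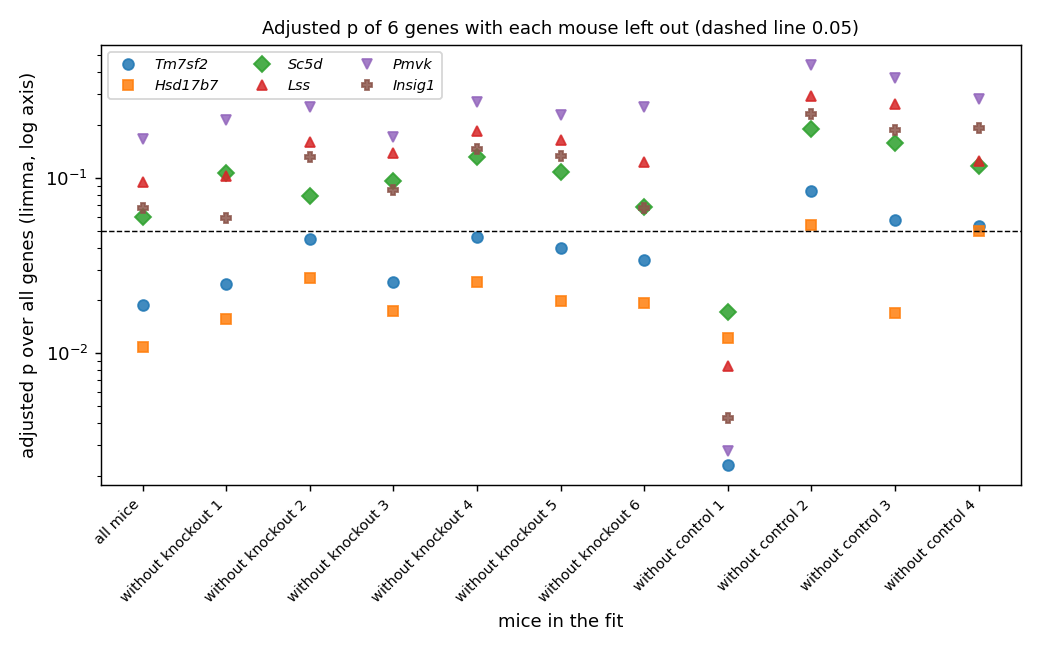
Adjusted p over all genes (y axis, log scale, limma) of 6 genes with all 10 mice and with each mouse left out (x axis), the dashed line marking 0.05. Without control 1 the 6 genes lie below the line, and without control 2 none of them does, with *Hsd17b7* at 0.0537.

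The genes that control SREBP2 showed no common direction, with 3 of the 7 below 0 and a median log2 fold change of 0.03. None of the 7 passed, and 1 was lower at an unadjusted limma p below 0.05, *Insig1*. *Srebf2*, which encodes SREBP2 itself, had 8.57, 8.65 and 9.05 at the lowest, median and highest in knockout mice, and 8.30, 8.81, 8.78 and 8.69 in control mice 1 to 4. The groups overlapped (log2 fold change 0.07, SE 0.11, 95% interval -0.18 to 0.32, adjusted p = 0.822, limma).

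*Insig1* (probe set 17435584, chr5:28071412-28078662), which retains SCAP and is itself a target of SREBP, had the lowest log2 fold change of the 26 genes, -0.83 (SE 0.23, 95% interval -1.33 to -0.33, adjusted p = 0.0675, limma). Its log2 expression was 10.26, 10.42 and 10.95 at the lowest, median and highest in knockout mice, and 10.48, 11.62, 11.70 and 11.60 in control mice 1 to 4. Control 2, control 3 and control 4 were above every knockout mouse and close to each other, and control 1 lay within the knockout range. The mean levels were 10.52 ± 0.30 in knockout mice and 11.35 ± 0.58 in control mice (SD, n = 6 and 4).

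*Insig2*, a close relative with the same retaining role, had 11.73, 11.81 and 12.10 at the lowest, median and highest in knockout mice, and 12.06, 11.82, 11.27 and 11.30 in control mice 1 to 4 (log2 fold change 0.23, SE 0.13, adjusted p = 0.406, limma). In control mice the 2 males were above the 2 females, and the female knockout mice (11.80, 11.86 and 11.82) were above the female control mice. The fold change was -0.08 within males and 0.54 within females (adjusted p = 0.879 and 0.0886), and the difference of the 2, -0.62 (SE 0.19), had an unadjusted p of 0.00726 and an adjusted p of 0.748 (limma).

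The remaining control genes, *Scap*, *Mbtps1*, *Mbtps2* and *Erlin1*, lay near 0. *Scap*, the escort, had a log2 fold change of -0.12 (adjusted p = 0.537), and its dimmer probe set one of -0.01. *Mbtps1* and *Mbtps2*, the Golgi proteases that make the first and the second cut in SREBP2, had 0.03 and 0.04 (adjusted p = 0.908 and 0.862, limma). *Erlin1*, a protein of the endoplasmic reticulum that binds cholesterol and restrains SREBP activation, had -0.01 (95% interval -0.26 to 0.23, adjusted p = 0.973, limma).

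*Stard4*, a carrier that moves sterols between membranes, had 7.41, 7.69 and 8.09 at the lowest, median and highest in knockout mice, and 7.56, 8.14, 8.06 and 8.20 in control mice 1 to 4. Control 1 was again the lowest control mouse, and the gene did not pass (log2 fold change -0.30, SE 0.15, adjusted p = 0.327, limma). In the isoprenoid branch, *Ggps1*, geranylgeranyl diphosphate synthase, had -0.10 (adjusted p = 0.654) and *Dhdds*, a subunit of the enzyme that makes the dolichol precursor, -0.14 (adjusted p = 0.443, limma).

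**Figure D5:**
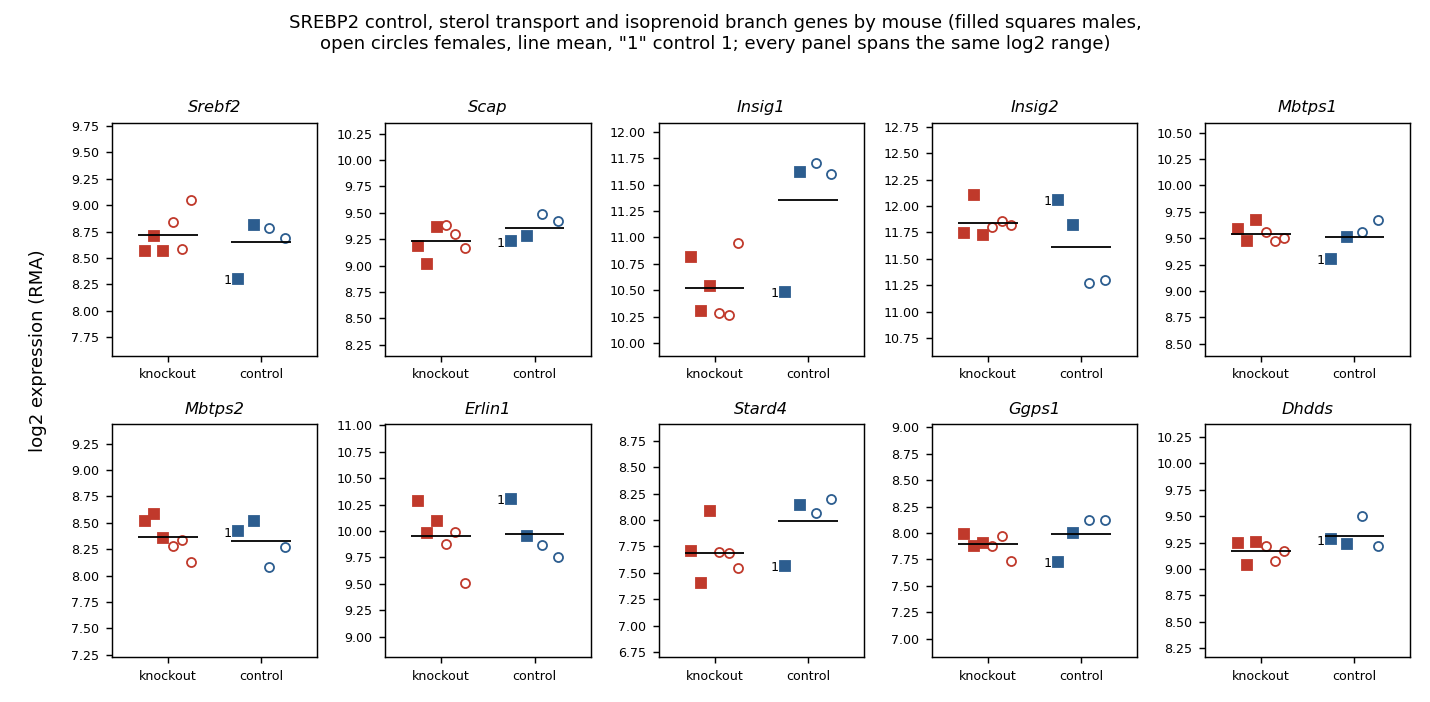
Log2 expression (y axis, RMA) of the 7 SREBP2 control genes, *Stard4*, *Ggps1* and *Dhdds* in each knockout mouse (left, red) and control mouse (right, blue), with the group mean as a line. For *Insig1*, 3 control mice lie between 11.60 and 11.70 and control 1 at 10.48, among the knockout mice.

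Both sexes were then compared by 1 limma fit with 4 groups. Within males, 3 knockout against 2 control mice, 0 of the 26 genes passed, against 0.0812% of all genes lower and 0.266% higher, and at an unadjusted p below 0.05, 3 were lower and 0 higher, against 4.72% of all genes lower and 6.43% higher. Within females 0 passed, against 0.207% of all genes lower and 0.699% higher, and at an unadjusted p below 0.05, 8 were lower and 2 were higher, against 6.55% and 8.11% of all genes. The lowest adjusted p in males was that of *Hsd17b7* (log2 fold change -0.54, adjusted p = 0.161), and in females that of *Tm7sf2* (-0.89, adjusted p = 0.0609, limma). Leaving out control 1 or control 2 leaves 1 control male, so no calls within sexes are given for those fits. The female log2 fold changes then rest on the same mice as before, and only the spread shared by the 4 groups changes. The median log2 fold change of the 16 enzymes was -0.29 in males and -0.36 in females. The difference between the sexes passed for 0 of the 26 genes, with 2 at an unadjusted p below 0.05, *Mvk* and *Insig2*, against 6.14% of all genes, and 1 of the 22180 genes passed (0.00451%). *Mvk* was 0.22 in males and -0.26 in females (difference 0.48, SE 0.20, adjusted p = 0.801, limma). The sex effect itself, male minus female, passed for 0 of the 26 genes, with 4 at an unadjusted p below 0.05, against 11.6% of all genes, while 0.207% of all genes were higher and 0.284% lower in males.

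Other genes of these pathways, 61 in 4 lists of which 51 were measured, had 0 higher and 2 lower members, against 3.11% of all genes higher and 1.14% lower. *Acat1*, a mitochondrial acetoacetyl-CoA thiolase, had 10.99 at the lowest and 11.43 at the highest in knockout mice, and 11.64, 11.81, 11.79 and 11.88 in control mice 1 to 4 (log2 fold change -0.53, SE 0.09, adjusted p = 0.0109, limma). *Cyb5b*, an outer mitochondrial membrane cytochrome, had a log2 fold change of -0.40 (SE 0.10, adjusted p = 0.0428, limma). Every knockout mouse lay below every control mouse for both. By list, 2 of 12 further synthesis and electron donor genes were lower, and 0 of 12 further control genes, 0 of 14 uptake and transport genes and 0 of 13 further branch genes passed in either direction. At an unadjusted limma p below 0.05, 11 of the 51 were lower (21.6%) and 2 higher, against 7.67% and 9.65% of all genes. *Srebf1*, which encodes SREBP1, was one of the 11 (log2 fold change -1.05, SE 0.42, adjusted p = 0.219, limma). It read 8.31 in control 1 and 10.39, 10.43 and 9.89 in control mice 2 to 4, so that control 1 stood low in this gene as well.

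The tissue read as liver, and cell type markers moved between the genotypes. Of 9 measured hepatocyte markers 0 passed in limma and 0 had an unadjusted p below 0.05, with a summed level (log2 of the sum of linear values) of 16.23 to 16.38 in knockout mice and 16.32 to 16.41 in control mice. Of 7 bile duct markers 5 were higher, with summed levels of 9.99 to 10.70 in knockout mice and 8.93 to 9.51 in control mice. Of 12 macrophage markers 5 were higher (13.35 to 13.85 in knockout mice and 12.66 to 13.23 in control mice), and in control mice 1 to 4 the summed macrophage level was 13.23, 12.66, 13.23 and 12.95. Of stellate cell and fibroblast markers 3 of 10 were higher, of endothelial markers 1 of 10, of neutrophil markers 1 of 8 and of lymphocyte markers 0 of 9. Among all genes 3.11% were higher. At an unadjusted limma p below 0.05, 6 bile duct, 12 macrophage and 5 stellate cell and fibroblast markers were higher. So were 2 endothelial, 3 neutrophil and 0 lymphocyte markers, against 9.65% of all genes. The part of these cell types in the values of the cholesterol genes was not tested. *Vps33b* itself read 8.92 to 9.39 in knockout mice and 9.12 to 9.15 in control mice (log2 fold change 0.08, adjusted p = 0.739, limma). No source used here states which exons of *Vps33b* this probe set covers, so its level is no check of the labels.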

How the data were processed

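Liver RNA of 10 mice was measured on 1 Affymetrix Mouse Gene 2.0 array each. The deposited values are log2 expression per probe set, made by the authors with RMA (background correction, quantile normalisation and summary of probes) in the oligo package, whose version is not given in the sources used here. No further normalisation was applied. Array medians lay between 4.71 and 4.82, pairs of arrays correlated at 0.982 to 0.991 and no pair was identical. Of 41345 probe sets, 23521 had 1 gene symbol in the platform annotation, 1820 had several and were left out, and 16004 are not listed there. The highest-mean probe set was kept for each of the 1082 genes with more than 1.

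The model for the 22180 genes had genotype and sex as terms and was run in limma 3.58.1 under R 4.3.3. Effects within sexes and their difference came from 1 fit with 4 groups, with Benjamini-Hochberg adjustment over all genes. The steps were tested on simulated data with independent noise for each gene. Of 100 planted changes of 0.5 on the log2 scale 56 passed, and of 100 planted changes of 1, 95 passed. Changes near 0.5 were thus often missed. The planted genes were drawn from all genes, with equal noise in both genotypes. The 16 enzymes had a median SD of 0.17 in knockout and 0.44 in control mice, so these rates need not hold for them. The labels say that the samples are separate mice. The number of arrays limits the precision. Gene positions and promoter windows came from RefSeq tables of GRCm38.p6, matched by gene identifier for 26 of 26 genes and by promoter for 22.

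All listed genes are named, together with other pathway genes that passed the test, and *Srebf1* was named after its values were seen. Members, lists and tests were chosen with earlier results of these data known. The alternatives were a model without sex, one with 4 groups and one with a replicate block, the mean of a gene's probe sets or all of them, means of at least 5 or 6, median centring, quantile normalisation, a trended or robust prior, weighted arrays, and each mouse left out in turn. Background signals, slides and scan dates are not part of the values analysed, and no alternative rests on them.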

Additional observations from a re-analysis of the deposited data

Results flagged for a closer look

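In 2 of the 52 groups of mice examined, 1 mouse stood far from the rest of its group, and chance flags about 1 in 20 groups. *Insig1* read 10.48 in control 1, with the nearest other control mouse at 11.60. *Insig2* read 12.10 in knockout 2, with the nearest other knockout mouse at 11.86.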

How the results depend on the processing

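Over 572 values of single genes under the alternatives, 526 kept their direction and side of the threshold, 6 no longer passed, 15 newly passed and 25 changed sign. The 10 arrays limit what can be seen. With 1 mouse left out at a time, the genes called ranged from 0 to 8 lower of the 26, from 47 to 449 lower and from 233 to 825 higher of all genes. These counts were lowest without control 2 and highest without control 1. Lower genes numbered 77 without control 4, 113 without knockout 4, 114 without control 3 and 115 without knockout 2. In the fit with 4 groups, leaving out a control mouse leaves 1 control mouse of its sex, which is assumed to vary like the other groups. Counts within sexes are not given for those fits. Log2 fold changes that changed sign with a mouse left out ranged from -0.15 to 0.081 for *Mvk*, from -0.33 to 0.21 for *Cyp51*, from -0.20 to 0.18 for *Msmo1*, from -0.021 to 0.18 for *Srebf2*, from -0.041 to 0.085 for *Mbtps1*, from -0.0011 to 0.074 for *Mbtps2* and from -0.083 to 0.054 for *Erlin1*.

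With the mean log2 value of at least 6, 4 of the 26 genes (with *Sc5d* and *Insig1*) and 420 of the 9988 genes tested were lower, fewer genes being tested. With array weights these numbers were 6 (with *Pmvk*, *Lss*, *Sc5d* and *Insig1*) and 499 of 22180, control 1 having a weight of 0.564. Without the sex term 165 genes were lower. Within females 1 of the 26 passed with a mean of at least 5 and 2 with a trended prior. The share of all genes passing within females was not counted in these fits, so nothing is read from these numbers. *Sc5d* also passed with a mean of at least 5 (adjusted p = 0.0388), a trended prior (0.0314) and a robust trended prior (0.0276, limma). Changes of sign were *Msmo1* at -0.0077 and *Mbtps1* at -0.0036 with arrays centred on their median, *Erlin1* at 0.013 with quantile normalisation, and *Msmo1* at -0.072, *Mbtps1* at -0.0014 and *Erlin1* at 0.051 with array weights. The causes of these differences were not tested.

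With the replicate number as a block beside sex, 0 of the 26 genes, 49 lower and 208 higher genes of all were called, *Tm7sf2* at -0.64 (adjusted p = 0.195) and *Hsd17b7* at -0.57 (adjusted p = 0.103, limma), and *Mvk* (0.10), *Cyp51* (0.044), *Dhcr7* (0.074) and *Erlin1* (0.046) changed sign. The labels give no pairing for these numbers. Deviations from the fit with genotype and sex, over all genes, correlated at -0.24 to 0.12 between same-numbered mice. By these deviations, 0 of 4 control mice correlated best with the knockout mouse of its number.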
